A study of Mus musculus with 16 samples.

Results

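The glutathione S-transferase (GST) genes Gsta4, Gstm1, Gstm2, Gstm5, Gstp1, Gstt1, Gstt3, Gsto1, Gstk1 and Mgst1 were followed in B16F10 tumors of lean and obese mice before and after etoposide. They were chosen by name, from the alpha, mu, pi, theta, omega, kappa and microsomal classes of the enzymes that conjugate glutathione. The choice was made with earlier results of these data known. The GST genes named are 10 of the 45777 genes in the count table, and all 10 were among the 16209 genes tested. B16F10 is a mouse melanoma line, and its cells were grown as allografts in mice that were 6 weeks old at implantation. Lean hosts were C57BL/6J (B6) mice with an intact leptin gene, and obese hosts were ob/ob mice, which lack leptin and overeat. Etoposide (ETS), a topoisomerase II inhibitor that leaves breaks in DNA, was given as 5 injections of 20 mg per kg. RNA of 4 tumors was sequenced in each of 4 groups. These are lean before therapy (B6_ctrl), lean after ETS (B6_ETS), obese before therapy (ob_ob_ctrl) and obese after ETS (ob_ob_ETS). The sample titles say ctrl and ETS, and the paper calls the groups pre- and post-chemotherapy. Neither says when the control tumors were taken or whether those mice received vehicle. A change named an effect of ETS therefore cannot be told apart from tumor age, tumor size or time in the host. All tumors came from a single cell line, obesity here always means the loss of leptin, and whole tumors were sequenced, so blood vessels, immune cells and other host cells contribute RNA. A lower value can mean fewer cells of a type or less RNA per cell, and these cannot be told apart.

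GST enzymes join the thiol of glutathione to electrophilic compounds, among them drugs, their metabolites and the aldehydes that form when lipids are oxidized, and the conjugates are then pumped out of the cell and trimmed to mercapturates. The alpha, mu, pi, theta and omega classes are cytosolic, the kappa class sits in mitochondria and peroxisomes, and Mgst1 belongs to a separate family of membrane proteins. Several GST genes are known targets of the stress factor Nfe2l2, which binds antioxidant response elements, and GST levels in tumors are widely studied in connection with resistance to chemotherapy.

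The total count per tumor ranged from 47199949 to 61655287. Values per tumor are given as CPM, the count relative to the total of the library, scaled between tumors by the TMM method, and levels of different genes are compared only as TPM, the abundance measure of the authors that corrects for transcript length and depth. The quasi-likelihood test of edgeR was run on all 16209 genes with n = 4 tumors per group, and an adjusted p under 0.05 counted as a call. The sample labels do not say whether the 4 tumors of a group came from separate mice, so the p-values measure only the spread between these tumors. Summed melanocyte markers, which the melanoma cells express, were present in every tumor at 9164 to 22160 TPM. The tumor ob_ob_ETS 4 stood apart with the highest summed fibroblast markers (2288 TPM, against 284 to 656 TPM in the other tumors of its group), and ob_ob_ctrl 4 with the highest summed erythroid markers (40770 TPM).

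After ETS, Gstm2, Gstp1 and Gstt3 were higher in both hosts, Gstm1, Gstm5 and Gstk1 were called higher in lean tumors, and Mgst1 moved in opposite directions. In lean tumors 6 of the 10 genes rose (Gstm1, Gstm2, Gstm5, Gstp1, Gstt3 and Gstk1) and 1 fell (Mgst1), beside 21% of all tested genes called higher and 22.8% called lower. In obese tumors 4 rose (Gstm2, Gstp1, Gstt3 and Mgst1) and 0 fell, beside 21.2% of all tested genes higher and 19% lower. Medians of the log2 fold change over the 10 genes were 0.71 in lean and 0.50 in obese hosts, where the medians of all tested genes were -0.015 and 0.0066. The 10 genes were chosen with earlier results known, so their shares and medians describe these genes and not the family as a whole. The difference between both effects, lean minus obese, passed the test for 2 genes in opposite directions. The effect on Gstm5 was higher in lean tumors, beside 6.35% of all tested genes called in that direction, and the effect on Mgst1 was lower in lean tumors, beside 10.1%. With limma on log2(TPM + 1) in place of counts, the median of all tested genes in lean tumors moved to -0.28, the share of called genes that were higher fell from 48.0% to 15.7%, and 4 of the GST genes were called higher and 3 lower. On that scale the lean effect was 0.56 for Gstm2, 0.32 for Gstp1, 0.78 for Gstt3 and -1.10 for Mgst1, and all 4 kept their call. For the difference between hosts that share of all called genes went from 38.7% to 9.24%, and the same 2 GST genes were called.

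**Figure D1:**
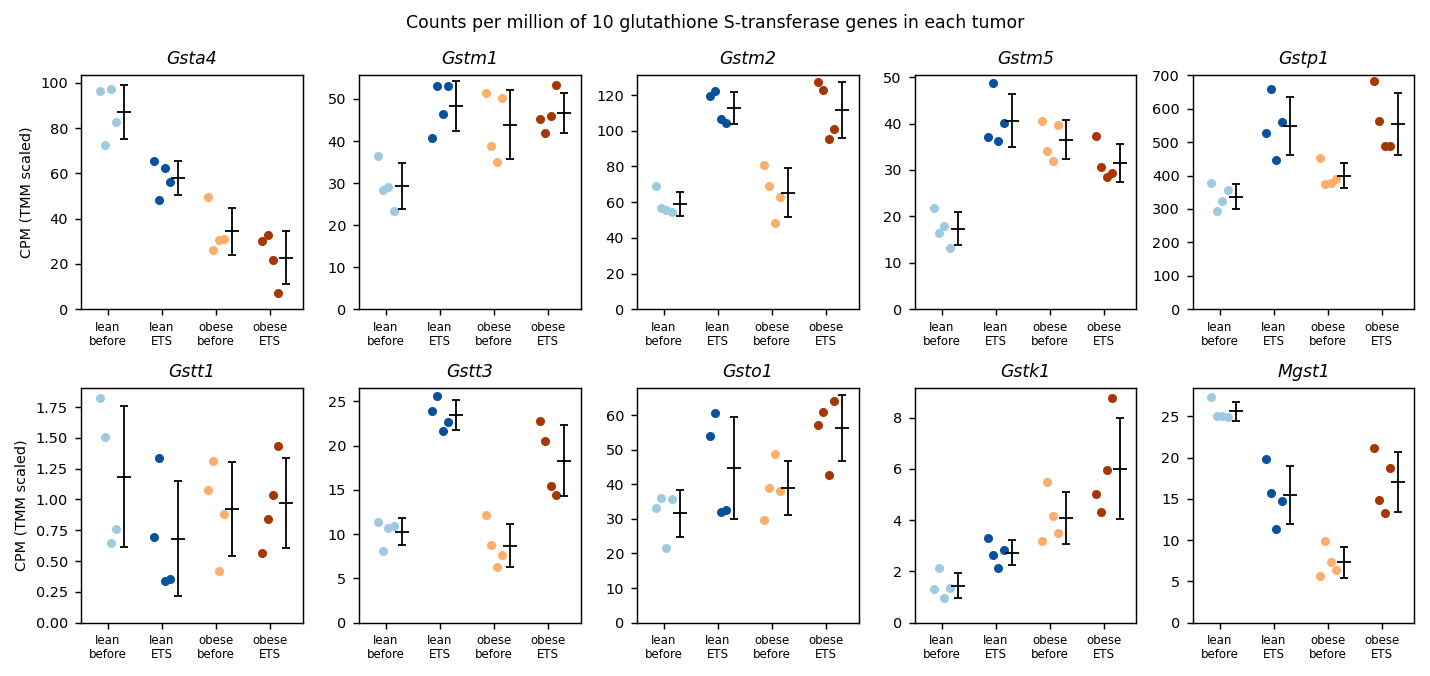
CPM (TMM scaled) of the 10 GST genes in each of 16 tumors, 1 panel per gene, with dots for tumors 1 to 4 of each group and bars for the mean ± SD (n = 4). Gstm2 and Gstt3 sit higher after ETS in both hosts with no overlap, Gstm5 is low only in the 4 lean tumors before therapy, and Mgst1 is lowest in the 4 obese tumors before therapy.

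Gstm5, a mu class enzyme, was low in lean tumors before therapy and rose there after ETS, when 3 of the 4 values lay within the range of obese tumors before therapy and 1 above it. Its values in lean tumors were 21.8, 16.3, 18.0 and 13.3 CPM before therapy and 37.1, 48.8, 36.3 and 40.1 CPM after ETS. In obese tumors they were 40.6, 34.1, 31.9 and 39.7 CPM before therapy and 37.4, 30.7, 28.4 and 29.2 CPM after ETS. The lean groups did not overlap, whereas the obese groups did. The log2 fold change after ETS was 1.23 in lean tumors (SE 0.15, adjusted p = 2.62e-05, 2.34-fold) and -0.22 in obese tumors (SE 0.15, adjusted p = 0.247). The difference between these effects was 1.44 (SE 0.21, adjusted p = 0.000273) and lay between 1.33 and 1.57 with each tumor left out in turn. Before therapy, Gstm5 was 2.11-fold higher in obese than in lean tumors (log2 fold change 1.08, SE 0.15, adjusted p = 9.60e-05), and after ETS the difference did not pass the test (-0.37, SE 0.15, adjusted p = 0.133). On the log2(TPM + 1) scale the change in obese tumors was called (-0.31, adjusted p = 0.0396, limma). Gstm5 is overlapped on the opposite strand by 4933431E20Rik, and the sources used here do not state whether counting used the strand. With the counts of that gene added to Gstm5, an alternative chosen after the data had been seen, the effect in lean tumors was 0.81, the difference between the effects 1.02 and the difference between hosts before therapy 0.64 (adjusted p = 6.59e-05, 0.000441 and 0.000578, edgeR).

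Mgst1, a membrane-bound transferase that also reduces lipid hydroperoxides, moved in opposite directions in the 2 hosts. It lies at chr6:138140527-138156755 on the plus strand. Lean tumors held 27.4, 25.1, 25.1 and 25.0 CPM before therapy and 19.9, 15.8, 11.3 and 14.7 CPM after ETS. Obese tumors held 5.64, 9.85, 7.30 and 6.36 CPM before therapy and 21.2, 14.8, 13.3 and 18.7 CPM after ETS. Within each host the groups did not overlap, and the highest obese tumor before therapy lay below the lowest lean tumor of either group. Mgst1 fell in lean tumors by 0.73 on the log2 scale (SE 0.19, adjusted p = 0.00681) and rose 2.34-fold in obese tumors (log2 fold change 1.22, SE 0.20, adjusted p = 0.000301). The difference, lean minus obese, was -1.96 (SE 0.27, adjusted p = 0.000229), between -2.13 and -1.83 with each tumor left out. Before therapy the obese tumors were lower by a log2 fold change of -1.81 (SE 0.20, adjusted p = 1.28e-05), while after ETS the hosts differed by 0.14 (SE 0.19, adjusted p = 0.678).

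Summed macrophage markers moved with Mgst1 between the groups. Of the 11 markers, 8 fell in lean tumors after ETS, beside 22.8% of all tested genes, and 8 rose in obese tumors, beside 21.2%. Before therapy 9 were lower in obese than in lean tumors, beside 12.9%. The 11 markers summed to 772 to 2050 TPM in lean tumors before therapy and 72.1 to 493 TPM after ETS, and to 65.2 to 395 TPM in obese tumors before therapy and 471 to 1551 TPM after ETS, and none of the 11 was at 0 in all tumors of a group. Within lean tumors before therapy, the tumor with the lowest macrophage sum (B6_ctrl 3, 772 TPM) had 25.1 CPM of Mgst1, inside the range of the other 3. Within obese tumors before therapy, the tumor with the highest macrophage sum (ob_ob_ctrl 2, 395 TPM) also had the highest Mgst1. In lean tumors after ETS, those with the highest macrophage sums (B6_ETS 1 and 2, 448 and 493 TPM) held the highest Mgst1 CPM. In obese tumors after ETS the tumor with the highest sum (ob_ob_ETS 4, 1551 TPM) had less Mgst1 CPM than ob_ob_ETS 1 (872 TPM). In obese tumors before therapy, ob_ob_ctrl 2 held the highest Mgst1 in TPM too (20.7 TPM). The other orders changed on the TPM scale of the sums. Mgst1 was then 33.8 and 24.3 TPM in B6_ETS 1 and 2, and 26.3 TPM in B6_ETS 4, whose macrophage sum was lowest. It was higher in ob_ob_ETS 4 (38.4 TPM) than in ob_ob_ETS 1 (36.1 TPM). Among lean tumors before therapy it was highest in B6_ctrl 3 (60.0 TPM). Summed T and NK cell markers stood at 58.4 to 113 TPM in lean tumors before therapy and at 0.440 to 2.67 TPM after ETS. Fibroblast markers there stood at 252 to 902 TPM and 41.3 to 198 TPM, and 5 of 9 tested fell, beside 22.8% of all tested genes. In obese tumors before therapy T and NK cell markers summed to 0.0716 to 1.99 TPM, with 2 of the 10 at 0 in all 4 tumors, and after ETS to 1.09 to 5.53 TPM. Fibroblast markers there summed to 43.0 to 286 TPM and then 284 to 2288 TPM, and 9 of 9 tested rose, beside 21.2% of all tested genes. The part of these cells in the Mgst1 values was not tested.

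The sequences upstream of Gstm5, Mgst1 and Gstp1 are shown because the first pair differed between hosts in their response to ETS and Gstp1 was the most abundant of the 10. They are RefSeq sequences of the build GRCm38.p6, 250 bases 5′ to 3′ ending just before the gene's start, with capitals for matches to the core letters of the antioxidant response element (TGACNNNGC) or of an AP-1 site (TGANTCA), on either strand.
Gstm5, chr3:107895604-107895853, plus strand: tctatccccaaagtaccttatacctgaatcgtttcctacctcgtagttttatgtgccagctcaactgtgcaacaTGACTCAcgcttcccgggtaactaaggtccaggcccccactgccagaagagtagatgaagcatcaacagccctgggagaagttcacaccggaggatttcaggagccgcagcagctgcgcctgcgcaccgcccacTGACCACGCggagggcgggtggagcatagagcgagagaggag
Mgst1, chr6:138140277-138140526, plus strand: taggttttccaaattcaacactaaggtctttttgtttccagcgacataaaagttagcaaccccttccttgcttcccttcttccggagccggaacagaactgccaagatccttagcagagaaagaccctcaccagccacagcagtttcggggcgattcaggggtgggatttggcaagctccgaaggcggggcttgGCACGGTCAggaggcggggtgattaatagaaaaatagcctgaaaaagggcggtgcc
Gstp1, chr19:4037913-4038162, minus strand: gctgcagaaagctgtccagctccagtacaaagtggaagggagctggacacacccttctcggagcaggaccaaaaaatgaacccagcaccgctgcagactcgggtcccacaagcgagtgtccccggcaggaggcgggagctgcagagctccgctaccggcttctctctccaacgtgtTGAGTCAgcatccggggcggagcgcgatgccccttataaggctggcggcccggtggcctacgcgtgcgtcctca
The search covered these bases and the next 50 for 9 of the 10 genes, and Gsta4 was not searched. The antioxidant response element core began at base -42 in Gstm5 and, on the opposite strand, at base -56 in Mgst1, counted from the gene's start, and 12.4% of 32544 mouse promoters of this length held it. An AP-1 match began at base -176 in Gstm5 and at base -74 in Gstp1, and 7.79% of all promoters held it. The 5 letters GCGTG of a xenobiotic response element, held by 32.6% of all promoters, matched in Gstm1, Gstp1 and at 2 places in Gstm5, 1 of which overlaps the end of the AP-1 match and the other the end of the antioxidant response element match. The core of an interferon-stimulated response element (3.45% of promoters) matched in Gstt1, and TTCNNNGAA, a gamma-activated sequence (8.33%), in a second listed promoter of Mgst1. Gstm2, Gstt3, Gsto1 and Gstk1 held none of the 5 motifs in this window.

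The other mu class genes, Gstm1 and Gstm2, lie on the same stretch of chromosome 3 as Gstm5, and both rose in lean tumors. Gstm2, at chr3:107981702-107986420 on the minus strand, is separated from Gstm1 (chr3:108012250-108017973, minus strand) by 25829 bases and from Gstm5 (chr3:107895854-107898685, plus strand) by 83016 bases. Gstm2 had 69.0, 56.7, 55.7 and 54.3 CPM in lean tumors before therapy and 119, 122, 107 and 104 CPM after ETS. The obese tumors had 81.1, 69.0, 48.3 and 62.7 CPM before therapy and 127, 123, 95.7 and 101.02 CPM after ETS. The groups before and after ETS did not overlap in either host. Gstm2 rose 1.92-fold in lean (log2 fold change 0.94, SE 0.14, adjusted p = 0.000141) and 1.71-fold in obese tumors (0.78, SE 0.14, adjusted p = 0.000712). The difference between these effects was 0.16 (SE 0.20, adjusted p = 0.617) and did not pass the test.

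Gstm1, which encodes a mu class enzyme that also binds the stress kinase Map3k5, was higher in obese tumors before therapy and rose in lean tumors. Its values in lean tumors were 36.4, 28.4, 28.9 and 23.3 CPM before therapy and 40.6, 53.0, 46.4 and 53.1 CPM after ETS, without overlap. In obese tumors it had 51.5, 38.9, 34.9 and 50.3 CPM before therapy and 45.2, 42.0, 46.0 and 53.3 CPM after ETS, with overlap. The log2 fold change was 0.72 in lean tumors (SE 0.15, adjusted p = 0.00147) and 0.087 in obese tumors (SE 0.15, adjusted p = 0.676). The difference of 0.64 (SE 0.21) lay at the threshold, with an adjusted p of 0.0502, and passed it with DESeq2 (0.0307), with edgeR's filterByExpr (0.0378) and without any 1 of 5 tumors (0.0173 without B6_ctrl 1, 0.0478 without B6_ETS 1, 0.0443 without ob_ob_ctrl 2, 0.0292 without ob_ob_ctrl 3 and 0.04996 without ob_ob_ETS 4). Without any 1 of the other tumors it did not pass. It also did not pass in edgeR without the exclusion of low counts (0.073), with the replicate block (0.0569) or with DESeq2's size factors (0.0519). With limma on log2(TPM + 1) the difference was 0.34 (adjusted p = 0.335). On the log2(TPM + 1) scale the lean change of 0.35 was not called (adjusted p = 0.0677, limma). Before therapy Gstm1 was higher in obese tumors (log2 fold change 0.58, SE 0.15, adjusted p = 0.00909), a call lost on the log2(TPM + 1) scale (0.0504, limma).

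Gstp1, the pi class enzyme that also restrains the kinase Mapk8, rose in both hosts. It lies at chr19:4035411-4037912 on the minus strand. Lean tumors had 377, 294, 323 and 356 CPM before therapy and 528, 659, 447 and 561 CPM after ETS. Obese tumors had 454, 376, 379 and 389 CPM before therapy and 683, 563, 487 and 487 CPM after ETS. All tumors after ETS were above all tumors before therapy of the same host. The rise was 1.63-fold in lean tumors (log2 fold change 0.70, SE 0.13, adjusted p = 0.000852) and 1.39-fold in obese tumors (0.47, SE 0.13, adjusted p = 0.0117), and the difference between the effects was 0.23 (SE 0.19, adjusted p = 0.448). Of the stretches of read length in its transcript, 52.6% occur letter for letter in the neighbor copy Gstp2 and 28.8% in the pseudogene Gstp-ps, so their counts are uncertain. With the counts of these genes added to those of Gstp1, the log2 fold changes were 0.72 in lean and 0.48 in obese tumors, an alternative chosen after the data had been seen.

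Of the theta class, Gstt3 rose in both hosts, and its neighbor Gstt1, the lowest of the 10 genes, passed edgeR's test in no comparison of all tumors. Gstt3 (chr10:75774117-75781422, minus strand) had 11.4, 8.05, 10.6 and 10.95 CPM in lean tumors before therapy and 23.9, 25.6, 21.7 and 22.6 CPM after ETS. It had 12.1, 8.77, 6.31 and 7.63 CPM in obese tumors before therapy and 22.8, 20.5, 15.4 and 14.4 CPM after ETS. Again neither host showed overlap. The rise was 2.28-fold in lean (log2 fold change 1.19, SE 0.19, adjusted p = 0.000245) and 2.103-fold in obese tumors (1.07, SE 0.19, adjusted p = 0.000683), with a difference of 0.12 (SE 0.27, adjusted p = 0.807). Its annotated gene overlaps Gm20441 on the same strand, which shares 23.9% of its read-length stretches. Gstt1 (chr10:75783813-75798584, minus strand), which lies 2390 bases further on, was counted 19 to 110 times per tumor. Its values were 1.83, 1.51, 0.65 and 0.76 CPM in lean tumors before therapy and 0.69, 1.34, 0.34 and 0.35 CPM after ETS, with overlap. In obese tumors they were 1.07, 1.32, 0.42 and 0.88 CPM and then 0.56, 0.84, 1.04 and 1.44 CPM, also with overlap. The log2 fold changes of Gstt1 were -0.81 in lean (SE 0.48, adjusted p = 0.185) and 0.077 in obese tumors (SE 0.48, adjusted p = 0.919). The lean change was called on the log2(TPM + 1) scale (adjusted p = 0.0406, limma) and, at -1.37, without B6_ETS 2 (adjusted p = 0.0371, edgeR).

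Gsta4, the alpha class enzyme that clears the lipid aldehyde 4-hydroxynonenal, was lower in obese tumors at both time points. It lies at chr9:78191966-78209349 on the plus strand. Lean tumors had 96.2, 72.5, 97.4 and 82.8 CPM before therapy and 65.3, 48.2, 62.5 and 56.3 CPM after ETS. Obese tumors had 49.7, 26.4, 30.6 and 31.1 CPM before therapy and 30.03, 32.6, 21.6 and 7.02 CPM after ETS. Every obese tumor before therapy lay below every lean tumor before therapy, and after ETS every obese tumor lay below every lean one. The difference, obese minus lean, was -1.34 before therapy (SE 0.33, adjusted p = 0.00726) and -1.35 after ETS (SE 0.33, adjusted p = 0.0334). The second call was lost with only the compared groups in the fit (adjusted p = 0.116, edgeR) and without B6_ETS 1, 3 or 4 or ob_ob_ETS 3 (0.0640, 0.0732, 0.0712 and 0.0579). The effect of ETS was -0.59 in lean (SE 0.32, adjusted p = 0.153) and -0.59 in obese tumors (SE 0.33, adjusted p = 0.160), and neither passed the test. The lean change was called with edgeR's exact test (adjusted p = 0.000204), with only the lean groups in the fit (0.00637) and, at -0.95, with limma on log2(TPM + 1) (0.0252), and without ob_ob_ETS 4 the obese change was -0.29. Summed melanocyte markers were 18070 to 22160 TPM in lean and 9164 to 13490 TPM in obese tumors before therapy, and 16640 to 19610 TPM in lean and 9488 to 18540 TPM in obese tumors after ETS, and their part in the Gsta4 values was not tested.

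Gstk1, the kappa class enzyme of mitochondria and peroxisomes, had the opposite host pattern, with higher values in obese tumors. It lies at chr6:42245935-42250441 on the plus strand. Lean tumors had 1.30, 2.14, 0.96 and 1.37 CPM before therapy and 3.30, 2.66, 2.13 and 2.84 CPM after ETS. Obese tumors had 3.18, 5.504, 4.17 and 3.48 CPM before therapy and 5.004, 4.30, 5.98 and 8.77 CPM after ETS. Obese and lean tumors did not overlap at either time, and the groups before and after ETS overlapped in both hosts. Before therapy Gstk1 was 2.83-fold higher in obese tumors (log2 fold change 1.503, SE 0.28, adjusted p = 0.00121), and after ETS 2.203-fold (1.14, SE 0.28, adjusted p = 0.0320). The call after ETS was lost without the exclusion of low counts (adjusted p = 0.0535, edgeR), with only the compared groups in the fit (0.0839) and without B6_ETS 2, 3 or 4 (0.0657, 0.0854 and 0.0751) or ob_ob_ETS 4 (0.103, with a log2 fold change of 0.91). ETS raised Gstk1 in lean tumors by 0.92 (SE 0.28, adjusted p = 0.0150), a call lost without B6_ctrl 3 (0.0503) or B6_ETS 1 (0.0509) and with limma on log2(TPM + 1) (0.137). In obese tumors the change was 0.56 (SE 0.27, adjusted p = 0.114). The difference between these effects was 0.36 (SE 0.39, adjusted p = 0.567, edgeR) and did not pass the test. The highest Gstk1 value and the lowest Gsta4 value were both in ob_ob_ETS 4, the tumor with the highest fibroblast markers and the lowest melanocyte markers of its group.

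Gsto1, the omega class enzyme that removes glutathione from proteins and reduces dehydroascorbate, did not pass the test in any comparison. It lies at chr19:47854973-47864790 on the plus strand and overlaps Cfap43 on the opposite strand. Lean tumors had 33.2, 36.1, 21.6 and 35.7 CPM before therapy and 54.1, 60.8, 32.1 and 32.5 CPM after ETS. Obese tumors had 29.7, 39.0, 48.7 and 38.1 CPM before therapy and 57.1, 61.0, 42.7 and 64.3 CPM after ETS. The lean tumors after ETS fell into a high and a low pair, and the groups overlapped in both hosts. The log2 fold change was 0.50 in lean (SE 0.23, adjusted p = 0.0814) and 0.53 in obese tumors (SE 0.23, adjusted p = 0.0710). The lean change was called without B6_ETS 3 (adjusted p = 0.0375, edgeR) or B6_ETS 4 (0.0394) but was 0.097 and not called with limma on log2(TPM + 1) (adjusted p = 0.698). The obese change was called with edgeR's exact test (0.0160), with DESeq2 (0.0449), with only the obese groups in the fit (0.0401) and without ob_ob_ETS 3 (0.0406).

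**Figure D2:**
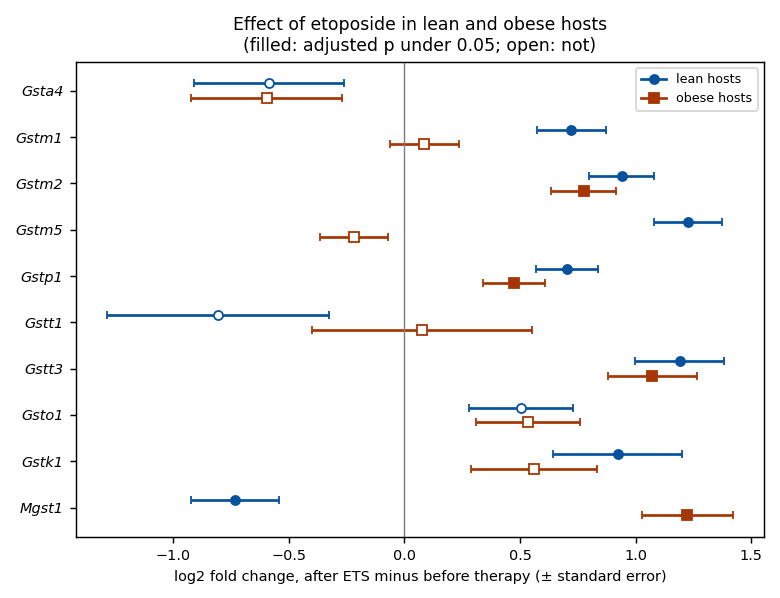
Effect of ETS on each GST gene as log2 fold change ± SE (horizontal axis) in lean hosts (circles) and obese hosts (squares), with filled symbols for an adjusted p under 0.05 in edgeR. Mgst1 lies at -0.73 in lean and 1.22 in obese hosts, Gstm5 at 1.23 and -0.22, and Gstm2, Gstp1 and Gstt3 are filled on the right in both hosts.

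Before therapy the hosts differed at 5 of the 10 genes. In obese tumors 3 were higher (Gstm1, Gstm5 and Gstk1), beside 13.5% of all tested genes, and 2 were lower (Gsta4 and Mgst1), beside 12.9%. After ETS 1 gene was higher in obese tumors (Gstk1), beside 3.28% of all tested genes, and 1 was lower (Gsta4), beside 2.3%. Over the 10 genes the median difference, obese minus lean, was 0.20 on the log2 scale before therapy and 0.00014 after ETS, where the medians of all tested genes were 0.019 and 0.0016. On the log2(TPM + 1) scale the share of called genes that were higher in obese tumors went from 51.0% to 29.0% before therapy and from 58.7% to 83.8% after ETS, with 2 GST genes higher and 2 lower before therapy. The comparisons before and after ETS use separate tumors, and each shares its tumors with the ETS effects given above. Of the genes that ETS raised in both hosts, Gstm2 differed between hosts by 0.15 before therapy (SE 0.14, adjusted p = 0.470), Gstp1 by 0.24 (SE 0.13, adjusted p = 0.197) and Gstt3 by -0.24 (SE 0.19, adjusted p = 0.391), and none passed the test. Gsto1 differed by 0.30 (SE 0.23, adjusted p = 0.362) and Gstt1 by -0.36 (SE 0.47, adjusted p = 0.612).

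**Figure D3:**
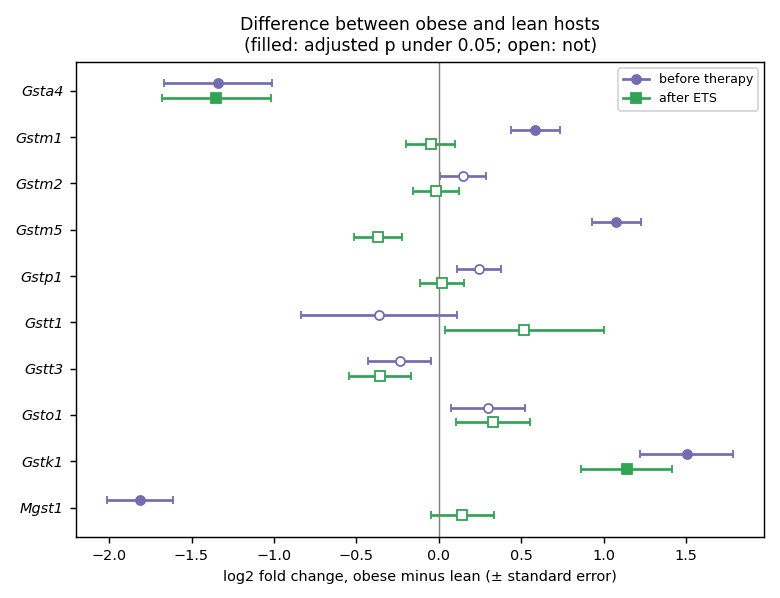
Difference between obese and lean hosts for each GST gene as log2 fold change ± SE (horizontal axis), before therapy (circles) and after ETS (squares), with filled symbols for an adjusted p under 0.05 in edgeR. Gsta4 and Gstk1 are filled at both times, on opposite sides of 0, while Gstm5 and Mgst1 are filled before therapy at 1.08 and -1.81 and open after ETS.

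Per transcript length, Gstp1 was by far the most abundant of the 10 genes in every group. Its level was 973 ± 78.4 TPM in lean tumors before therapy, 1215 ± 105 after ETS, 1053 ± 106 in obese tumors before therapy and 1360 ± 96.4 after ETS (mean ± SD, n = 4), or between 64.3% and 72.2% of the summed TPM of the 10 genes. Gsta4 came second in lean tumors before therapy (196 ± 28.2 TPM), and Gstm2 came second in the other groups (181 ± 8.29, 124 ± 28.0 and 198 ± 5.51 TPM). Gstk1 stood beside Gstt3 in obese tumors before therapy, at 8.62 ± 2.43 and 9.11 ± 2.74 TPM, and Gstt1 was lowest in every group, between 0.987 ± 0.648 and 2.35 ± 1.05 TPM. In lean tumors before therapy the neighbors Gsto1 and Mgst1 (57.5 ± 11.9 and 57.2 ± 2.23 TPM) and Gstk1 and Gstt1 were closer than their SD. In lean tumors after ETS this held for Gstm5, Gsto1 and Gstm1, at 73.4 ± 5.36, 62.0 ± 15.7 and 61.7 ± 7.94 TPM. In obese tumors before therapy Gstm5, Gsta4, Gstm1 and Gsto1 followed each other within their spread, from 78.6 ± 8.65 down to 64.5 ± 12.7 TPM. In obese tumors after ETS the pair Gstm1 and Gstm5 and the pair Gsta4 and Mgst1 did so. The summed level of the 10 genes was 1512 ± 89.7 TPM in lean tumors before therapy, 1747 ± 89.9 after ETS, 1491 ± 157 in obese tumors before therapy and 1881 ± 94.5 after ETS, and within each host the highest tumor before therapy lay below the lowest tumor after ETS. Gsta4 made up 12.9% ± 1.34 of this sum in lean tumors before therapy and 2.26% ± 1.03 in obese tumors after ETS.

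**Figure D4:**
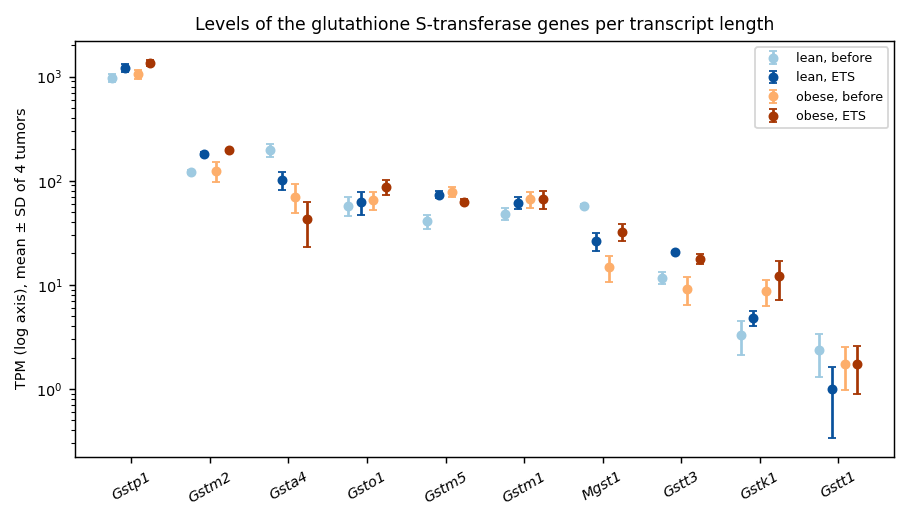
Level of each GST gene in TPM on a log axis, as mean ± SD of 4 tumors per group, with genes ordered by their mean over the groups. Gstp1 lies near 1000 TPM in every group, the mean of Gsta4 is 196 TPM in lean tumors before therapy and 42.6 TPM in obese tumors after ETS, and Gstt1 is lowest.

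Several of the genes varied together over the 16 tumors, a description in which the group differences take part. Gstm2 went with Gstt3 (Pearson r of log2 CPM 0.930), with Gstp1 (0.910), and Gstp1 with Gstt3 (0.845). With the group means removed these were 0.857, 0.623 and 0.760. Gstm1 went with Gstm5 (0.889, and 0.728 within groups). These were not separate sets. Gstm5 reached 0.715 with Gstp1 and 0.624 with Gstm2 (0.657 and 0.663 within groups). Gstm1 reached 0.711 with Gstp1 and 0.688 with Gstm2 (0.252 and 0.41 within groups). Gsta4 and Gstk1 were opposed (-0.916, and -0.721 within groups), and Gstm5 and Mgst1 were opposed over all tumors (-0.611) but not within groups (0.106). Tumors share the depth and the composition of their library across genes, and ob_ob_ETS 4 is an extreme point for Gsta4 and Gstk1.

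**Figure D5:**
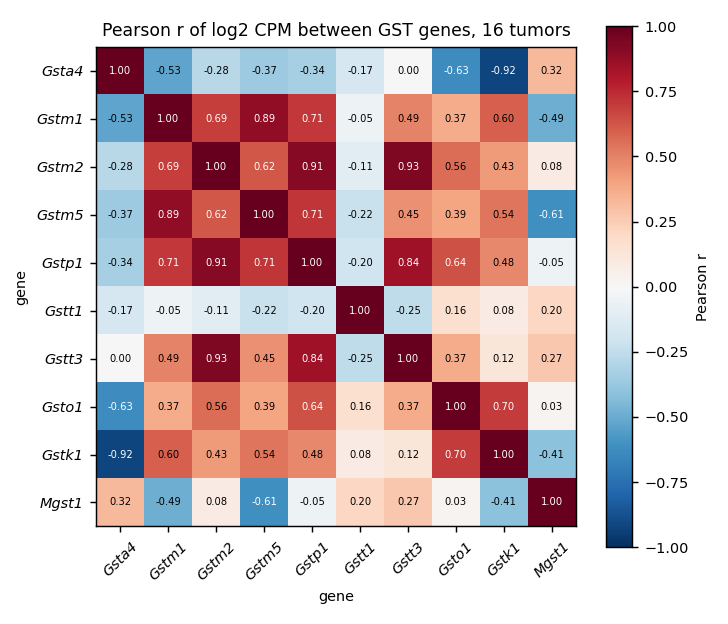
Pearson r of log2 CPM between each pair of GST genes over 16 tumors, with red for positive and blue for negative values. Gstm2, Gstp1 and Gstt3 share r of 0.845 to 0.930, and the row of Gsta4 is blue toward Gstk1 at -0.916.

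Among all other tested genes, the 2 with the pattern most like each GST gene were found by Pearson r over the same 16 tumors. For Mgst1 these were Trim30d (0.970) and Trim30a (0.967), 2 tripartite motif genes, and for Gstm5 Smim8 (0.962) and Sod1 (0.943), which encodes the cytosolic superoxide dismutase. Gstm2 was most like Pdk2 (0.975) and Zscan2 (0.971), Gstt3 like Tbc1d9b (0.983) and Itm2c (0.973), and Gstm1 like Mkrn1 (0.933) and Mxd4 (0.926). Gstp1 was most like its own pseudogene Gstp-ps (0.983), with which it shares sequence, and Rtl8a (0.964). Gsta4 went with Gm39458 (0.964) and Prkg1 (0.938), Gstk1 with Zfp469 (0.939) and Xylt1 (0.923), and Gsto1 with Hmga1b (0.928) and Ube2g2 (0.923). Gstt1, the lowest gene, reached 0.830 with the complement gene C3 and 0.772 with Nsg1.

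The rest of the glutathione transferases and the related membrane proteins moved in part with the 10 genes. Of 22 listed, 21 were in the table and 18 were tested, of which ETS raised 8 and lowered 2 in lean tumors, and raised 7 and lowered 1 in obese tumors, with medians of 0.64 and 0.43. Among all tested genes, 21% were higher and 22.8% lower in lean hosts, and 21.2% and 19% in obese hosts. The mu class gene Gstm6 rose 5.03-fold in lean (log2 fold change 2.33, SE 0.27, adjusted p = 1.67e-05) and 2.42-fold in obese tumors (1.27, SE 0.26, adjusted p = 0.00151), and Gstm7 rose by 1.56 (SE 0.35, adjusted p = 0.00281) and 1.05 (SE 0.35, adjusted p = 0.0283). Gstp2, the second pi class copy, rose by 0.83 (SE 0.14) and 0.49 (SE 0.14), with adjusted p of 0.000408 and 0.0139. Mgst3, a relative of Mgst1, rose by 1.08 in lean tumors (SE 0.15, adjusted p = 9.61e-05) and by 0.40 in obese tumors (SE 0.15, adjusted p = 0.0452), and the difference of 0.68 passed the test (SE 0.22, adjusted p = 0.0423). Alox5ap, a leukotriene pathway protein of the same membrane family as Mgst1 that leukocytes express, fell by 2.32 on the log2 scale in lean tumors (SE 0.61, adjusted p = 0.00674) and rose by 2.51 in obese tumors (SE 0.61, adjusted p = 0.00503), with a difference of -4.83 (SE 0.86, adjusted p = 0.00148). Ptges, the prostaglandin E synthase of this family, rose by 2.74 in obese tumors (SE 0.75, adjusted p = 0.0100), with a difference of -3.61 (SE 1.04, adjusted p = 0.0272).

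By level, the alpha class genes Gsta1 and Gsta2 and the pi class Gstp2 stood near the upper members. Gstp2 had 219 ± 30.6, 299 ± 31.3, 280 ± 35.6 and 367 ± 34.7 TPM in lean tumors before and after ETS and obese tumors before and after ETS. Gsta1 had 142 ± 30.3, 168 ± 24.3, 118 ± 17.8 and 99.9 ± 34.9 TPM in the same order, and Gsta2 79.7 ± 18.5, 71.6 ± 12.9, 46.1 ± 12.1 and 49.8 ± 21.9 TPM. The mean levels of Gstz1, Ptges2, Mgst3 and Hpgds lay between 15.3 and 54.3 TPM, those of Gstcd, Gstm4, Gstm6, Gstm7, Mgst2 and Gstt2 between 0.945 and 12.9 TPM, and those of Gsta3, Gstm3 and Gsto2 below 1 TPM. Alox5ap had 34.4 ± 19.2, 5.33 ± 2.86, 5.36 ± 2.57 and 29.0 ± 21.5 TPM, and Ptges between 0.403 ± 0.253 and 3.51 ± 3.88 TPM. Gstp3, Ltc4s and Gstt4 held a 0 in some tumor and were not tested, and Gstt4 was listed at 0 in all 16 tumors.

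The genes that make glutathione, supply its amino acids or break it down held calls in both directions. Of 23 tested, ETS raised 7 and lowered 10 in lean hosts, beside 21% and 22.8% of all tested genes, and in obese hosts it raised 7 and lowered 9, beside 21.2% and 19%, with medians of -0.34 and -0.090. Slc7a11, which imports cystine, fell by 2.17 on the log2 scale in lean tumors (SE 0.39, adjusted p = 0.000527) and by 1.56 in obese tumors (SE 0.38, adjusted p = 0.00453). Chac1, which degrades glutathione in the cytosol, fell by 1.78 in lean tumors (SE 0.42, adjusted p = 0.00346). Cth, which makes cysteine from cystathionine, fell by 2.28 in obese tumors (SE 0.30, adjusted p = 8.06e-05). Each is named for the host where its change was among the 3 largest called. Neither was among the 3 largest called differences between hosts. Ggt1, which splits glutathione outside the cell, rose by 1.84 in lean (SE 0.29, adjusted p = 0.000224) and 1.90 in obese tumors (SE 0.29, adjusted p = 0.000236). Of the enzymes that make glutathione, the mean of Gclc went from 29.9 to 16.2 CPM in lean and 34.4 to 21.5 CPM in obese tumors. For Gclm it went from 40.9 to 27.4 CPM in lean and 34.7 to 27.4 CPM in obese tumors. For Gss it went from 29.9 to 52.2 CPM in lean and 35.0 to 48.9 CPM in obese tumors. For the difference between hosts, 1 gene was called higher and 4 lower, beside 6.35% and 10.1% of all tested genes, with Anpep at -3.14 (SE 0.45, adjusted p = 0.000260), Ggt5 at -2.33 (SE 0.66, adjusted p = 0.0252) and Lap3 at -0.86 (SE 0.14, adjusted p = 0.000782), and Anpep itself rose by 1.84 in obese tumors (SE 0.32, adjusted p = 0.000529).

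The glutathione peroxidases and glutaredoxins, which use glutathione to reduce peroxides and disulfides, had no call downward after ETS in either host. Of 12 tested, 6 rose in lean and 7 in obese hosts, beside 21% and 21.2% of all tested genes, and the medians were 0.42 and 0.56. In lean tumors the largest rises were Gpx2 at 3.23 (SE 0.61, adjusted p = 0.000770), Txndc12 at 1.13 (SE 0.12, adjusted p = 1.04e-05) and the lipid peroxidase Gpx4 at 1.05 (SE 0.17, adjusted p = 0.000232). In obese tumors they were the secreted Gpx3 at 3.22 (SE 0.98, adjusted p = 0.0170), Gpx7 at 2.46 (SE 0.70, adjusted p = 0.0120) and Glrx at 0.90 (SE 0.21, adjusted p = 0.00340). For the difference between hosts, 3 genes were called higher and 1 lower, beside 6.35% and 10.1% of all tested genes. The 3 largest called were Gpx7 (-3.52, SE 0.97, adjusted p = 0.0211), Gpx4 (0.79, SE 0.24, adjusted p = 0.0317) and Glrx3 (0.70, SE 0.13, adjusted p = 0.00148). Mean levels of Gpx7 were 3.55, 1.30, 1.22 and 6.17 TPM and of Gpx3 41.7, 23.5, 10.4 and 90.9 TPM in lean tumors before and after ETS and obese tumors before and after ETS, while the summed fibroblast markers had medians of 558, 86.0, 117 and 514 TPM, and their part in these values was not tested.

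Conjugates leave the cell through transporters of the Abcc family and are trimmed by dipeptidases. Of 13 such genes tested, 4 were higher and 4 lower after ETS in lean hosts, beside 21% and 22.8% of all tested genes, 7 were higher and 1 lower in obese hosts, beside 21.2% and 19%, and 5 differences between hosts were called, all lower in lean tumors, beside 10.1% of all tested genes. Abcc3 went from -1.80 in lean (SE 0.62, adjusted p = 0.0289) to 2.72 in obese tumors (SE 0.65, adjusted p = 0.00457), and Dpep2 from -1.72 (SE 0.57, adjusted p = 0.0232) to 2.65 (SE 0.59, adjusted p = 0.00282). Dpep1 rose by 2.64 in obese tumors (SE 0.97, adjusted p = 0.0417), and Abcc2 by 1.61 in lean tumors (SE 0.47, adjusted p = 0.0126). The differences between hosts were -4.52 for Abcc3 (SE 0.90, adjusted p = 0.00311), -4.37 for Dpep2 (SE 0.82, adjusted p = 0.00200) and -4.10 for Dpep1 (SE 1.35, adjusted p = 0.0495). Macrophage and fibroblast markers moved the same way between these groups, with the sums given for Mgst1.

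The regulators of Nfe2l2 and its targets outside the GST family held calls in both directions. Of 22 tested, 3 went up and 9 went down in lean hosts, beside 21% and 22.8% of all tested genes, while 3 went up and 5 went down in obese hosts, beside 21.2% and 19%, with medians of -0.34 and -0.15. Ephx1, the microsomal epoxide hydrolase, rose by 2.40 in lean (SE 0.24, adjusted p = 7.33e-06) and 1.88 in obese tumors (SE 0.24, adjusted p = 6.50e-05), whereas Slc7a11, named above, belongs to this list too and fell. Bach1, a repressor at antioxidant response elements, fell by 1.08 in lean tumors (SE 0.13, adjusted p = 2.49e-05), with a difference between hosts of -1.17 (SE 0.18, adjusted p = 0.000517). Txnrd1, a thioredoxin reductase, fell by 0.69 in obese tumors (SE 0.14, adjusted p = 0.00166). For the difference between hosts, 1 gene of this list was called higher and 4 lower, beside 6.35% and 10.1% of all tested genes. After Bach1 the largest called were Blvrb (-1.07, SE 0.34, adjusted p = 0.0450) and Osgin1 (-0.87, SE 0.27, adjusted p = 0.0371).

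Of 10 tested xenobiotic receptors and phase I enzymes, 4 rose and 0 fell in each host, beside 21% of all tested genes higher in lean and 21.2% in obese hosts. Beside Ephx1, the pregnane X receptor gene Nr1i2 rose by 1.28 (SE 0.37, adjusted p = 0.0113) and Cbr3 by 0.67 (SE 0.20, adjusted p = 0.0129) in lean tumors. In obese tumors Cyp1b1 rose by 3.29 (SE 0.91, adjusted p = 0.0107) and Por by 0.39 (SE 0.12, adjusted p = 0.0155), and for both the effect was lower in lean tumors (-4.50, SE 1.25, adjusted p = 0.0229 and -0.52, SE 0.16, adjusted p = 0.0435). Among the 6 kinase and adaptor genes whose proteins GST enzymes are known to bind or regulate, 2 were called lower and 0 higher in lean hosts, beside 22.8% and 21% of all tested genes, while 2 were lower and 1 higher in obese hosts, beside 19% and 21.2%. Mapk9 fell by 0.31 (SE 0.059, adjusted p = 0.000795) and Traf2 by 0.25 (SE 0.089, adjusted p = 0.0321) in lean tumors. In obese tumors Mapk8 fell by 0.45 (SE 0.098, adjusted p = 0.00260), Traf2 fell by 0.32 (SE 0.089, adjusted p = 0.0117) and Map3k5 rose by 0.49 (SE 0.18, adjusted p = 0.0411), and the difference between hosts was called for Mapk9 (-0.33, SE 0.084, adjusted p = 0.0147).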

How the data were processed

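RNA of 16 tumors, 4 per group as given by the sample titles, was analysed. The authors aligned the reads to mm10 with HISAT2 2.1.0 and quantified genes with StringTie 2.1.3b, and deposited raw counts per gene for 45777 genes. The deposited TPM values come from the same step and served for levels and as an alternative, and the deposited FPKM values were not used. Libraries were made with a stranded kit, and whether counting used the strand is not given in the sources used here.

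The 29568 genes at 0 in 1 or more tumors were left out, following the study, counts were scaled by TMM, and all 16 tumors were fitted with a mean per group using edgeR 4.0.16 in R 4.3.3 (quasi-likelihood test, Benjamini-Hochberg over 16209 genes). Log2 CPM used a prior count of 2. Coordinates and promoters come from RefSeq tables of GRCm38.p6, the assembly behind mm10, in which 45679 genes of the table and all 10 GST genes were found, 9 of them with a promoter. On simulated data the test recovered 59 of 99 genes changed 2-fold and 95 of 96 changed 4-fold in lean tumors among 15936 genes, with 3 false calls, and 21 of 99 and 91 of 96 for the difference between hosts, with 5 false calls. The simulated tumors were independent, with the same relative spread for every gene. Few genes were changed, in B6_ETS only and equally often up and down. In the data 7099 genes were called for the lean effect, so the simulation does not give the rate of false calls there.

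The genes and lists were chosen with earlier results of these data known. Named genes were all 10 GST genes, all other glutathione transferases by level, up to 3 called genes per list and ETS comparison with the largest change, and the 2 genes most like each GST gene. The enzymes that make glutathione were also named by level. A gene named for a single host may also have changed in the other. Alternatives were DESeq2's size factors, other low-count exclusions, edgeR's exact test on counts with 1 added (the study's test), DESeq2 1.42.0, limma 3.58.1 on log2(TPM + 1) and log2(TPM + 0.1), only the compared groups, the replicate number as a block, each tumor left out, and, chosen after the data had been seen, counts of look-alike or overlapping genes added. Pairs of tumors within a group correlated at 0.970 to 0.992 and all differed by more than sampling noise.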

Additional observations from a re-analysis of the deposited data

Results flagged for a closer look

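In 2 of the 40 sets of 4 tumors examined for the 10 GST genes, a tumor lay far from the other 3 of its group, and chance flags about 1 in 20 groups. Gsto1 in B6_ctrl 3 was 21.6 CPM, below 33.2 to 36.1 CPM in the other lean tumors before therapy, a gap of 0.834 of the range of the group. Mgst1 in B6_ctrl 1 was 27.4 CPM, above 25.0 to 25.1 CPM in the others, a gap of 0.953 of the range, in a group whose SD was 1.17 CPM.

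The effect of ETS differed between lean and obese hosts for 2 genes by the test of the difference itself. Gstm5 differed by 1.44 on the log2 scale, lean minus obese (adjusted p = 0.000273, edgeR), and Mgst1 by -1.96 (adjusted p = 0.000229, edgeR).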

How the results depend on the processing

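The number of GST genes called stayed between 6 and 8 for the lean effect, 4 and 5 for the obese effect, 2 and 3 for their difference and 4 and 5 for the hosts before therapy under all alternatives run. After ETS, obese minus lean, the count of 2 became 1 without the exclusion of low counts and 0 with only the compared groups, and 0 to 2 with each tumor left out. Over all genes the 904 calls of that comparison became 450 without the exclusion, 69 with only the compared groups, 2176 with DESeq2 and 1683 with the replicate block, and 185 (without B6_ETS 4) to 1340 (without ob_ob_ETS 2) with each tumor left out. The cause was not tested.

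The replicate block changed no call on a GST gene. Of 24 pairs of tumors with the same number in different groups, 11 correlated above 0.1, and the range was -0.112 to 0.452. Pairs with different numbers ranged from -0.583 to 0.505. With the block more genes were called in every comparison, 7754 in place of 7099 for the lean effect. After ETS, obese minus lean, it was 1683 in place of 904. Whether tumors with the same number share a batch or a pairing was not tested, and the main fit had no block.

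The sign turned only for values that passed no test in either fit. With limma on log2(TPM + 1) and log2(TPM + 0.1) these were the obese effect on Gstt1 (-0.013 and -0.016), the differences between hosts of Gsta4 (-0.12 and -0.10), Gstm2 (-0.13 and -0.13), Gstp1 (-0.052 and -0.052) and Gstt3 (-0.14 and -0.17), Gstm2 before therapy (-0.0033 and -0.0035), and after ETS Gstm1 (0.098 and 0.0997) and Gstm2 (0.12 and 0.12). With filterByExpr the difference of Gsto1 was 0.0038. With each tumor left out, values spanned 0 for the obese effects on Gstm1 (-0.0095 to 0.17) and Gstt1 (-0.17 to 0.30), the differences of Gsta4 (-0.31 to 0.23), Gstt3 (-0.078 to 0.25) and Gsto1 (-0.23 to 0.10), and, after ETS, Gstm2 (-0.071 to 0.052) and Gstp1 (-0.083 to 0.11).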

Other observations

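Marker lists not set beside a gene above also moved with the groups. Among all tested genes, 21% were higher and 22.8% lower in lean tumors after ETS, and 21.2% higher in obese tumors. Before therapy 12.9% were lower in obese than in lean tumors. Of 9 endothelial markers tested, 1 fell in lean and 7 rose in obese tumors after ETS, and their summed levels had medians of 140, 89.5, 81.0 and 124 TPM in lean tumors before and after ETS and obese tumors before and after ETS. Of the 9 adipocyte markers 3 were tested, of which 1 fell in lean and 3 rose in obese tumors, and the summed medians were 58.0, 33.6, 119 and 298 TPM. Erythroid markers summed to 395 to 1843 TPM in lean tumors before therapy, 0 to 0.390 TPM after ETS, 2902 to 40770 TPM in obese tumors before therapy and 3.51 to 134 TPM after ETS. Of the 10 melanocyte markers, 3 rose in lean and 5 in obese tumors after ETS and 6 were lower in obese tumors before therapy, by the test on scaled counts. Their summed TPM did not rise in lean tumors, with medians of 20370 before therapy and 19180 after ETS. In obese tumors the medians were 11750 and 15280 TPM. Skeletal muscle markers, with 3 tested, summed to between 3.93 and 501 TPM in single tumors, and keratinocyte markers, with 1 tested, to between 0.0680 and 133 TPM.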
